A study of Mus musculus with 8 samples.

Results

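Muscle of a CaV1.1 knockout (KO) mouse diaphragm at embryonic day E18.5 was compared with muscle of 2 control diaphragms of the same age, and the difference was described across all genes. The measurements came from a spatial transcriptomics assay on fixed, paraffin-embedded sections, in which each capture spot of 55 µm collects the RNA of the several cells that lie over it. A spot was taken as muscle when it held at least 1000 unique molecular identifiers (UMIs, each standing for 1 captured molecule) and when its score, the mean natural log of 1 + the rate per 10000 UMIs over 9 muscle genes (Acta1, Actn2, Des, Myl1, Mylpf, Neb, Ryr1, Tnnt3 and Ttn), lay above a threshold drawn by Otsu's method in that section. In the KO section 813 of 1331 kept spots (61.1%, exact 95% interval 58.4 to 63.7) were muscle, against 3092 of 3460 in control 1 (89.4%) and 2199 of 2525 in control 2 (87.1%). These 813 spots were part of 9873 muscle spots among 12703 kept spots in the 8 sections of the series, and their UMIs were summed to 1 value per gene and section.

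The KO embryo carried the dysgenic genotype CaV1.1 -/- on both alleles of Cacna1s, and such embryos came from crosses of CaV1.1 +/- mice or of CaV1.1 +/- mice that also carried HSA-Cre, a Cre driven by the human skeletal actin promoter, and floxed β-catenin. The controls expressed both proteins from at least 1 allele each, so a control may have been heterozygous. The remaining sections were 1 CaV1.1 KO and 3 controls of E14.5, and 1 diaphragm at E18.5 in which β-catenin was deleted in muscle (bCat cKO). The sex and litter of the embryos were not given in the sources used here, the KO group at E18.5 was 1 section, and p-values therefore measure only the spread between the sections of the control groups.

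CaV1.1 is the voltage-gated calcium channel of the transverse tubules of skeletal muscle. It senses the depolarization of the fiber and opens the ryanodine receptor RyR1 in the adjoining sarcoplasmic reticulum, the step called excitation-contraction coupling, so that dysgenic muscle does not contract and newborns cannot breathe. The diaphragm is also a standard preparation for the neuromuscular junction, where acetylcholine receptors (AChRs) gather in a narrow endplate band along the middle of the muscle.

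The KO muscle was sampled less deeply than the control muscle and covered less area. Muscle spots summed to 16293312 UMIs in the KO, 75800909 in control 1 and 62934506 in control 2, and the median muscle spot held 19362, 23525 and 27917 UMIs in the same order. The threshold on the muscle score was 3.18 in the KO, with the nearest spots at 3.19 above and 3.18 below it, and 3.79 and 3.58 in the controls, and 176 of the KO muscle spots lay within 10% of it. The median score of muscle spots was 3.88 in the KO and 4.33 and 4.37 in the controls, and 52.0% of KO muscle spots were surrounded by muscle on all sides, against 77.2% and 71.2%. Fewer fibers per spot and less RNA per fiber cannot be told apart in such sums. The slides use the same barcodes by design, and the KO section shared 1029 and 771 spot barcodes with the controls. Levels below are UMIs per 1000000 of the muscle sum, scaled between sections with trimmed mean of M-values (TMM) factors, and are called CPM.

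A further 10 skeletal muscle genes took no part in the choice of spots, among them Ckm, Atp2a1 and Casq1. Each had a higher rate in muscle spots than in other spots of all 3 sections. For Ckm the rate was 2.83 and 3.81 times as high in the controls and 3.34 times in the KO. The label was looser in the KO: at the threshold of control 1, 467 of its 813 muscle spots remained, against 2113 of 2199 in control 2. The 10 genes summed to 58305 and 57538 CPM in the controls and to 24054 CPM in the KO. Their median log2 fold change was -1.28, with 9 called lower. The count was 4 at the threshold of control 1 in all E18.5 sections and 4 among spots surrounded by muscle on all sides. It was 6 with totals not scaled by TMM. The 9 genes used to choose the spots were lower in the KO than in both controls, with log2 fold changes from -1.70 for Acta1 to -0.63 for Ryr1 and a median of -1.29, which is given as a description because they chose the spots. Acta1, skeletal α-actin, stood at 62092 and 66757 CPM in the controls and 19849.7 CPM in the KO. Ttn, the giant spring protein of the sarcomere, stood at 10409.5 and 9567 CPM in the controls and 5765 CPM in the KO.

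Cacna1s, the gene that encodes CaV1.1 (ENSMUSG00000026407, chr1:136052806-136119822 on GRCm38.p6), was still detected in the KO but at a lower level. It was at 84.4 and 87.3 CPM in controls 1 and 2 and at 29.7 CPM (512 UMIs) in the KO. The KO lay below both controls, with a log2 fold change of -1.53 (SE 0.15, adjusted p = 0.00133). The dysgenic mutation is a small frameshift deletion, and the assay counts probe pairs at fixed sites whose place relative to it was not given in the sources used here, so the level does not check the genotype. Other L-type channel genes moved the other way and were looked up after their values were seen. Cacna1d, the channel of pacemaker and hair cells, was at 2.82 and 3.15 CPM in the controls and 9.34 CPM in the KO (log2 fold change 1.65, SE 0.21, adjusted p = 0.00272). Cacna1c, the cardiac and smooth muscle channel, was at 13.1 and 11.8 CPM in the controls and 23.0 CPM in the KO (log2 fold change 0.88, SE 0.21, adjusted p = 0.0198).

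Across the 14823 genes tested other than the 9, 3810 (25.7%) passed an adjusted p of 0.05, of which 1568 (10.6%) were higher and 2242 (15.1%) lower in KO muscle. The KO lay outside the range of the 2 controls for 12621 genes (85.1%), above both for 43.0% and below both for 42.2%, so a place outside that range says little on its own. The split of the calls depends on the scaling. With plain totals in place of TMM, log2 fold changes moved up by a median of 0.54, which gave 7245 genes higher and 746 lower, or 90.7% of calls higher against 41.2% with TMM. Values below are relative to the median gene, as TMM sets it. Under plain totals the median log2 fold change of 11 of the lists described below turned from negative to positive: calcium uptake, postsynaptic genes, myosin heavy chains, myogenic factors, denervation response, calcineurin, dystrophin complex, splicing regulators, smooth muscle, fibroblast and brown adipocyte.

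**Figure D1:**
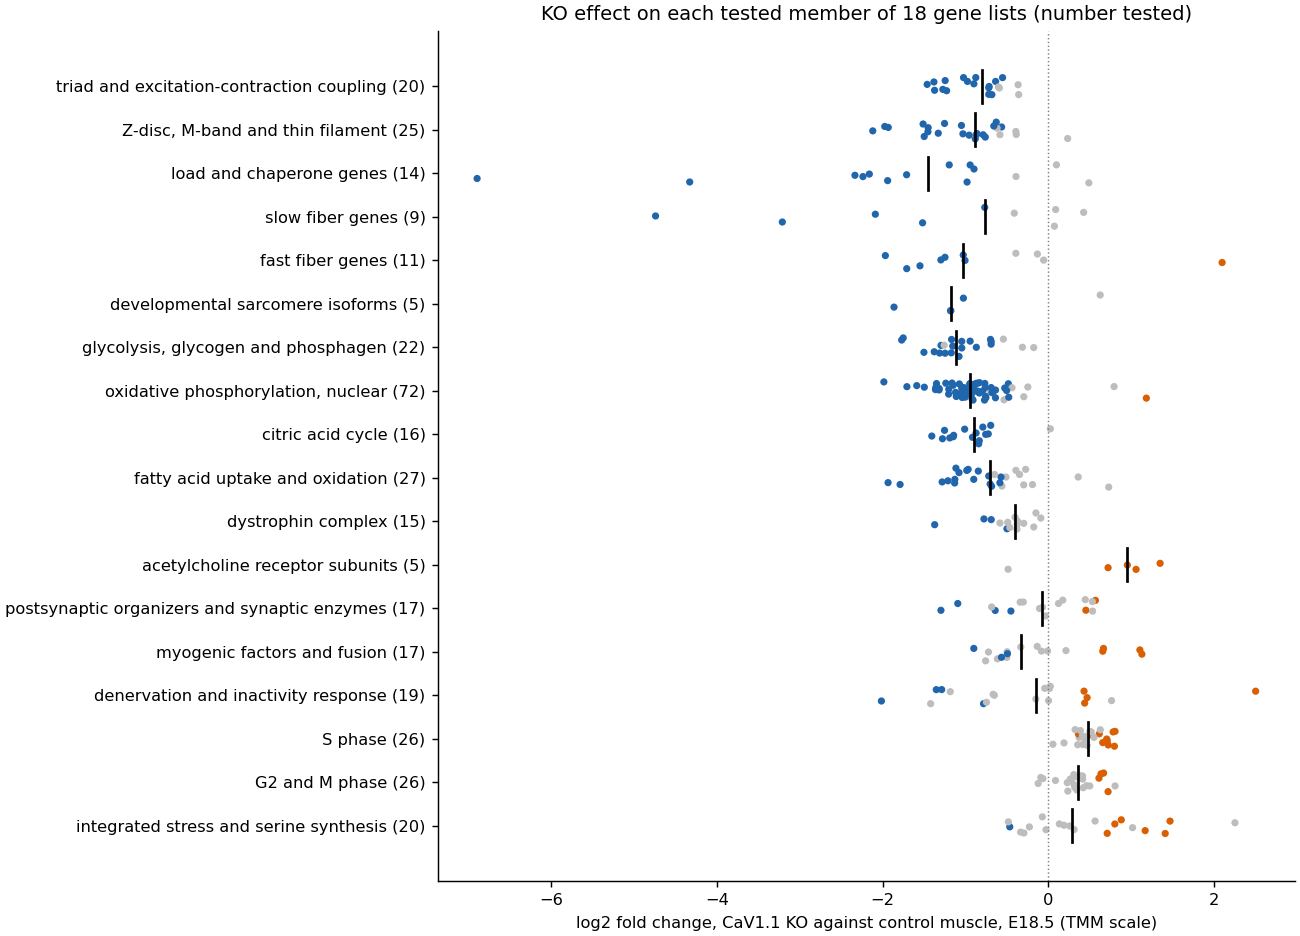
Log2 fold change of KO over control muscle at E18.5 (horizontal axis) for the genes of 18 lists (rows), with genes called higher in orange, called lower in blue and not called in gray. The black tick is the median of a list and the dotted line marks no change. AChR subunits (median 0.96) and S phase genes (median 0.49) lie to the right, and triad, load and energy genes to the left.

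Genes of the AChR rose. The muscle receptor is a ring of α1, β1 and δ subunits with γ in fetal muscle or ε in mature muscle, and 4 of the 5 subunit genes were called higher and none lower, beside 10.6% of all genes called higher. Chrnd, encoding δ, was at 94.7 and 92.4 CPM in the controls and 195 CPM in the KO (log2 fold change 1.06, SE 0.17, adjusted p = 0.00576). Chrng, the fetal γ subunit, was at 119 and 103 CPM in the controls and 215 CPM in the KO (log2 fold change 0.96, SE 0.19, adjusted p = 0.0121). Chrna1, the ligand-binding α1 subunit, was at 116 and 114 CPM in the controls and 190.1 CPM in the KO (log2 fold change 0.72, SE 0.17, adjusted p = 0.0195). In each case the controls lay close together and the KO well above them. Chrne, the adult ε subunit, was scarce in all sections, at 5.34 and 5.65 CPM in the controls and 14.03 CPM (242 UMIs) in the KO, and rose by 1.35 on the log2 scale (SE 0.22, adjusted p = 0.00588). Chrnb1, the β1 subunit, did not pass the test and pointed the other way, at 157 and 171 CPM in the controls and 117 CPM in the KO (log2 fold change -0.48, SE 0.15, adjusted p = 0.0557), a sign that turned under plain totals (0.0546). The 4 rises held in each alternative fit, including each control left out. Those of Chrna1 and Chrng fell short of a log2 fold change of 1. DESeq2 also called Chrnb1 lower, as did the fit with no filter on low counts.

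The promoters of these genes are shown because the subunits that rose and the one that did not can be set side by side, with Myog, the myogenic factor gene that was also higher. They are the 250 bases before a start site in RefSeq on GRCm38.p6, written 5′ to 3′. Capitals mark CANNTG, the E-box letters bound by myogenic factors. The windows of Chrnb1 and Chrne overlap the listed gene, whose span ends at 69795966 and 70619213, and the last Chrnb1 match lies in that overlap. Chrnd was not in the table.
Chrna1 (chr2:73580339-73580588, minus strand): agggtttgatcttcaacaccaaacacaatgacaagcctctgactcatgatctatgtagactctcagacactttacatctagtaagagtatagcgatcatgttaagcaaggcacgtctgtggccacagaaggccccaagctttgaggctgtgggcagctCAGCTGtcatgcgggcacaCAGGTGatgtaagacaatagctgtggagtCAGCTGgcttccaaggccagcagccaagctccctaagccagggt
Chrng (chr1:87205561-87205810, plus strand): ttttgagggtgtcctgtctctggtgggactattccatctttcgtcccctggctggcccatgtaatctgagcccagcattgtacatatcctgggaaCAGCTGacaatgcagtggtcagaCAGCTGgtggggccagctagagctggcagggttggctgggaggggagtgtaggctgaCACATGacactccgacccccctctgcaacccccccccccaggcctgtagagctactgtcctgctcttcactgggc
Chrne (chr11:70619195-70619444, minus strand): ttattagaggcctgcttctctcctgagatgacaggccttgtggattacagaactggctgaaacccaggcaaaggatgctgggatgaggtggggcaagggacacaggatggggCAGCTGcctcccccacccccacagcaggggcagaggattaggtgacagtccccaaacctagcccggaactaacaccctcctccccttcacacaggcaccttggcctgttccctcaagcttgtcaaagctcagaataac
Chrnb1 (chr11:69795938-69796187, minus strand): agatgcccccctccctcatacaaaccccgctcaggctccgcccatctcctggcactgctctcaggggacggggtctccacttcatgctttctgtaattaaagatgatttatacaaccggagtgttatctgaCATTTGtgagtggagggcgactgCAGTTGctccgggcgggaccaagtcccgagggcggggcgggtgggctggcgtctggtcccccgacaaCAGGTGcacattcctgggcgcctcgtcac
Myog (chr1:134289754-134290003, plus strand): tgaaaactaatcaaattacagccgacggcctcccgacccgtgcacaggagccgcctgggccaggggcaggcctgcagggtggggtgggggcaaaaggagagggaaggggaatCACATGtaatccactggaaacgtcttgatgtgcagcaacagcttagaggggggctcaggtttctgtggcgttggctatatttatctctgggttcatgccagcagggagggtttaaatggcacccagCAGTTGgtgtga
CANNTG reads the same on both strands, and the windows held 3 matches for Chrna1, 3 for Chrng, 1 for Chrne, 3 for Chrnb1 and 2 for Myog. Among all 32851 windows listed there, 66.2% held at least 1 match and 12.2% held 3 or more. In the first window of each tested gene these shares were 58.4% and 7.48%. Genes that fell also had matches, in windows not printed here: 3 for Ankrd2 and 4 in each of 2 windows for Csrp3. The form CAGCTG stood in the windows of Chrna1, Chrng and Chrne, was in 13.0% of all windows, and was not among the letters of the Chrnb1 and Myog windows. A match of letters is not a binding site.

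AChR transcripts were also seen in a larger share of the KO muscle spots. With each muscle spot thinned to 5000 UMIs, Chrna1 was seen in 27.7% and 27.2% of muscle spots in the controls and in 54.8% of KO muscle spots (exact 95% interval 51.3 to 58.2, counting error only). Chrng was seen in 31.2%, 28.8% and 61.1%, and Chrnd in 25.8%, 25.6% and 60.7%, in the same order. In spots outside muscle, those below the threshold, the share for Chrna1 was 11.4% and 12.7% in the controls and 29.1% in the KO. It was thus higher in the KO there too, at a median depth of 17431, 20185 and 12639 UMIs. These spots still held muscle RNA and are not a reference free of muscle. After thinning, Ckm was seen in 100% and 99.7% of them in the controls and in 100% in the KO. Without thinning, Chrna1 was in 66.6%, 71.7% and 87.2% of muscle spots. Thinning left out 32, 5 and 4 muscle spots of controls 1 and 2 and the KO, and 9, 2 and 64 other spots. Thinning puts spots on the scale of plain totals, on which the mean Chrna1 count of a thinned muscle spot was 0.397 and 0.414 in the controls and 0.995 in the KO, and a higher level raises such a share by itself. On the maps of the 3 sections the control signal formed a line through the muscle and the KO signal a broad field.

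The genes that place and anchor the receptor were called in both directions. Of 17 genes for postsynaptic organizers and synaptic enzymes, 2 were called higher and 4 lower, close to the 10.6% and 15.1% of all genes. Musk, the kinase that starts receptor clustering, was at 54.8 and 58.1 CPM in the controls and 81.9 CPM in the KO and missed the threshold (log2 fold change 0.54, SE 0.17, adjusted p = 0.0505). Rapsn, the scaffold under the receptor, was at 36.7 and 37.9 CPM in the controls and 36.5 CPM in the KO, and Dok7, the activator of MuSK, at 25.8, 26.7 and 24.4 CPM. Both lay within 0.15 of no change on the log2 scale, at -0.03 (SE 0.22) and -0.10 (SE 0.12). Nes, nestin, an intermediate filament protein of endplates and fiber ends, fell from 226 and 195 CPM to 85.7 CPM (log2 fold change -1.29, SE 0.17, adjusted p = 0.00297). Plain totals gave 9 higher and 2 lower, and the number called higher was 0 without E18.5 control 2, 1 without E14.5 control 3, without E18.5 control 1 or among interior spots, 4 without E14.5 control 2 and 5 among muscle spots above their section's median score.

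The furthest falls in the contractile lists were those of the slow myosin light chains. Of 9 slow-fiber genes tested 5 were called lower and none higher. The median log2 fold change of the list was -0.77, against 0.00 over all genes. It fell less far than the median of the 10 further skeletal muscle genes (-1.28). Plain totals gave 4 lower and 3 higher, and 1 gene was called higher without E18.5 control 2. Myl2, the slow regulatory light chain (chr5:122092724-122113473), was at 490.5 and 627 CPM in the controls and 20.9 CPM in the KO (26.8-fold lower, log2 fold change -4.74, SE 0.25, adjusted p = 0.000552). Myl3, the slow essential light chain, was at 212 and 297 CPM in the controls and 27.5 CPM in the KO (log2 fold change -3.21, SE 0.31, adjusted p = 0.00135). Myh7, the slow myosin heavy chain, was at 3060.2 and 4094 CPM in the controls and 842 CPM in the KO (log2 fold change -2.09, SE 0.23, adjusted p = 0.0019). The KO lay far below both controls for all 3 genes. Some slow isoforms did not follow them: Tnnt1, slow troponin T, was at 3556 and 3911 CPM in the controls and 3935 CPM in the KO, Tnni1, slow troponin I, at 1625, 1753 and 1272 CPM, and Atp2a2, the slow calcium pump, at 1039, 1056 and 1115 CPM. Their log2 fold changes were 0.08 (SE 0.23), -0.41 (SE 0.22) and 0.09 (SE 0.21), none passed the test, and that of Tnni1 turned to 0.13 under plain totals. After thinning, Myl2 was seen in 70.5% and 77.5% of control muscle spots and in 9.39% of KO muscle spots, against 40.9%, 33.0% and 5.51% of spots outside muscle.

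Most fast-fiber genes and developmental isoforms were lower, and 1 fast myosin rose. Of 11 fast-fiber genes 7 were called lower and 1 higher (median -1.03). The median of the 10 further skeletal muscle genes, which share Atp2a1 with this list, was -1.28. The lower count of the fast-fiber list was 3 with the common score threshold, 5 among interior spots and 6 under plain totals. The rise was Myh4, the fast 2B heavy chain, at 238 and 344 CPM in the controls and 1249 CPM in the KO (4.29-fold, log2 fold change 2.10, SE 0.24, adjusted p = 0.0019). Myh4 was seen in 52.0% and 64.4% of thinned control muscle spots and in 96.9% of those of the KO. The other fast heavy chains did not pass the test and were near the controls: Myh1, fast 2X, stood at 1689 and 2513 CPM in the controls and 2023 CPM in the KO, and Myh2, fast 2A, at 44.4, 73.0 and 53.6 CPM. Both lay between the controls. Tnni2, fast troponin I, was at 3234 and 3609 CPM in the controls and 876 CPM in the KO (log2 fold change -1.97, SE 0.21, adjusted p = 0.00173), and Mybpc2, fast myosin-binding protein C, at 1213, 1469 and 410.4 CPM (log2 fold change -1.71, SE 0.17, adjusted p = 0.00138). Of 5 developmental isoforms 4 were called lower and none higher, and the largest log2 fold change was 0.63. That none was higher did not hold in many alternatives. In DESeq2, under plain totals, among interior spots, with the common score threshold and with the E18.5 sections alone 1 was called higher. The lower count was 3 among interior spots and 2 with the common score threshold. Myh3, embryonic myosin, was at 6007 and 5168 CPM in the controls and 1537 CPM in the KO (log2 fold change -1.86, SE 0.24, adjusted p = 0.00287), and Myh8, neonatal myosin, the most abundant heavy chain here, at 47317, 45669.5 and 20589.6 CPM (log2 fold change -1.18, SE 0.25, adjusted p = 0.0136), a call that was lost among interior muscle spots and with a common score threshold.

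**Figure D2:**
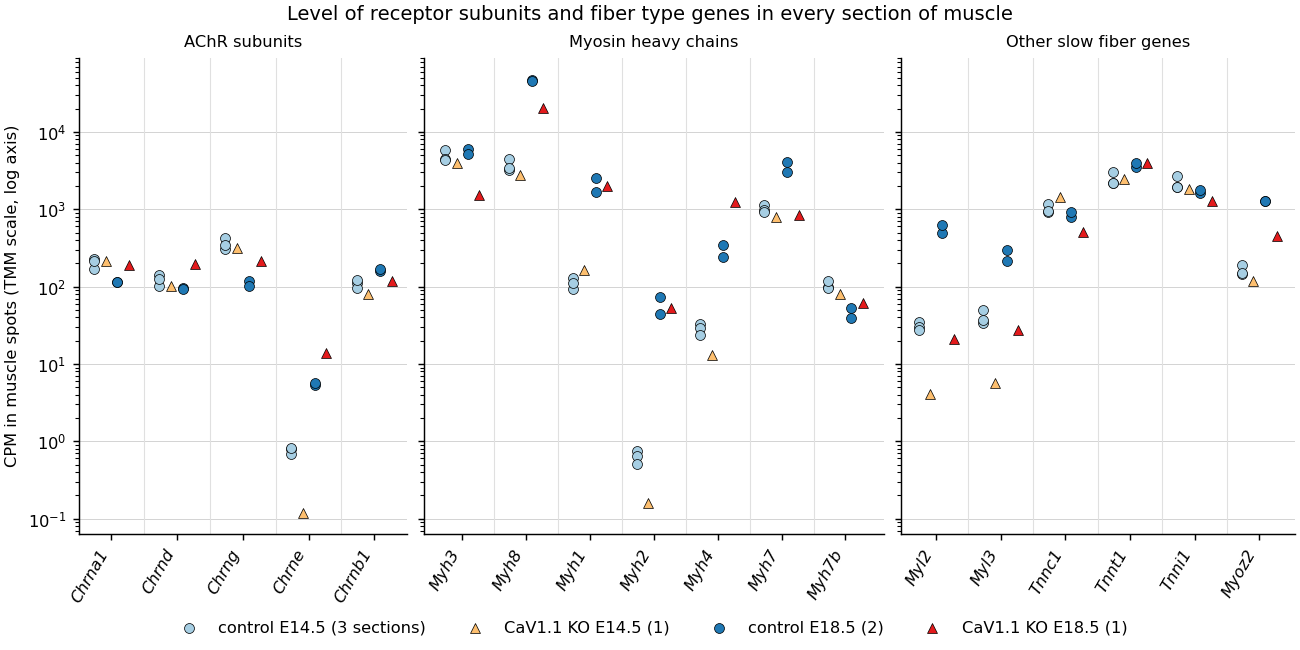
Level in muscle spots in CPM (log axis, values under 0.08 drawn at 0.08) of selected genes in each section, with E14.5 controls as light blue circles, KO E14.5 as orange triangles, E18.5 controls as blue circles and KO E18.5 as red triangles. The red triangles lie above both blue circles for Chrna1, Chrnd and Myh4 (1249 CPM against 238 and 344) and below them for Myl2 (20.9 CPM against 490.5 and 627).

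Genes tied to mechanical load were mostly lower. The load and chaperone list had 11 of 14 genes called lower and none higher, with a median of -1.45, and plain totals gave 9 lower and 2 higher. Ankrd2, a stretch-responsive ankyrin repeat protein (chr19:42035917-42045111), was at 129.8 and 175 CPM in the controls and 1.28 CPM in the KO, where it rested on 22 UMIs (119-fold lower, log2 fold change -6.90, SE 0.36, adjusted p = 0.000552). Csrp3, the Z-disc protein MLP (chr7:48830398-48848051), was at 1594 and 1514 CPM in the controls and 77.3 CPM in the KO (20.1-fold lower, log2 fold change -4.33, SE 0.34, adjusted p = 0.000889). Hspb1, a small heat shock protein of strained muscle, was at 1147 and 1434 CPM in the controls and 256.1 CPM in the KO (log2 fold change -2.33, SE 0.22, adjusted p = 0.00118). The KO lay far below both controls for these genes. Hspb7, another small heat shock protein, and Ankrd1, a relative of Ankrd2, fell by 2.24 (SE 0.29) and 2.16 (SE 0.23) on the log2 scale, with adjusted p = 0.00287 and 0.00171. All 5 kept their calls in each alternative tried.

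Partners of CaV1.1 at the triad, the junction of tubule and reticulum, were lower as a group. Of 20 triad genes 16 were called lower, none higher, and all 20 lay below both controls, with a median of -0.80 and a range from -1.46 to -0.36. The fall was smaller than that of the 10 further skeletal muscle genes (median -1.28) and of the 9 genes that chose the spots (median -1.29). The triad list overlaps the 10 further genes, with Cav3 in both. Jph2, a junctophilin that holds the membranes together, was at 352 and 368 CPM in the controls and 139 CPM in the KO (log2 fold change -1.37, SE 0.14, adjusted p = 0.00146). Cacnb1, the β1a subunit of the channel, was at 302 and 299 CPM in the controls and 127 CPM in the KO (log2 fold change -1.24, SE 0.20, adjusted p = 0.00502). Cav3, caveolin of the tubule membrane, was at 387 and 358 CPM in the controls and 154 CPM in the KO (log2 fold change -1.27, SE 0.17, adjusted p = 0.00295). Stac3, the adaptor that CaV1.1 needs to reach RyR1, was at 116 and 118 CPM in the controls and 91.2 CPM in the KO and did not pass (log2 fold change -0.36, SE 0.17, adjusted p = 0.171). The count fell to 5 with a common score threshold of 3.79 in all E18.5 sections, an alternative chosen after the data were seen, to 7 among interior spots, to 10 among spots low in other tissue and to 8 under plain totals.

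Calcium handling and ion transport split. Of 14 calcium uptake and buffering genes 5 were called lower and 1 higher, beside 15.1% and 10.6% of all genes. The rise was Calr, a calcium-binding chaperone of the reticulum, at 333 and 288 CPM in the controls and 508 CPM in the KO (log2 fold change 0.71, SE 0.14, adjusted p = 0.00975). Mrln, myoregulin, which inhibits the calcium pump, fell from 49.0 and 54.0 CPM to 21.0 CPM (log2 fold change -1.30, SE 0.21, adjusted p = 0.00586). Leaving out E18.5 control 1 gave 3 lower and 2 higher genes, and plain totals turned the balance to 2 lower and 5 higher. Among 19 muscle ion channel and pump genes 9 were called lower and 3 higher (median -0.62), against 4 and 7 under plain totals. Kcna7, a potassium channel, was at 19.54 and 27 CPM in the controls and 7.83 CPM in the KO (log2 fold change -1.57, SE 0.26, adjusted p = 0.0058). The KO lay below both controls.

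The structural genes of the sarcomere beyond the 9 were mostly lower. Of 25 Z-disc, M-band and thin filament genes 20 were called lower and none higher. Their median was -0.88, against -1.28 for the 10 further skeletal muscle genes, a list that overlaps this one, with Ldb3 in both. Nrap, a scaffold of growing myofibrils, was at 745 and 744 CPM in the controls and 172 CPM in the KO (log2 fold change -2.12, SE 0.27, adjusted p = 0.00287), and Lmod2, a thin filament nucleator, at 812, 867 and 214 CPM (log2 fold change -1.97, SE 0.25, adjusted p = 0.0028). The controls were nearly equal and the KO far below them. The count was 13 without E18.5 control 1, 10 with the common score threshold, 11 among interior spots and 12 under plain totals. In the dystrophin complex, which ties the cytoskeleton to the matrix, 4 of 15 genes were called lower and none higher, beside 15.1% and 10.6% of all genes. The other 11 were not called, and the median was -0.40. The lower count was 1 with the common score threshold, among interior spots and under plain totals, 2 without E18.5 control 1 and 9 without E14.5 control 1. Plain totals also gave 2 higher.

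Genes of energy metabolism were lower in each of 4 lists. The medians of all 4 fell less far than the -1.28 of the 10 further skeletal muscle genes. Ckm is in that list and also in the glycolysis, glycogen and phosphagen list. Of 72 nuclear genes for oxidative phosphorylation 65 were called lower and 1 higher, with a median of -0.95. Ndufa6, a complex I subunit, was at 339.5 and 289 CPM in the controls and 105 CPM in the KO (log2 fold change -1.59, SE 0.16, adjusted p = 0.00146), and Atp5g1, a subunit c gene of the ATP synthase, at 139, 122 and 46.2 CPM (log2 fold change -1.50, SE 0.13, adjusted p = 0.000954). The KO lay below both controls for 70 of the 72. The gene called higher was Cox6b2, a testis form of a complex IV subunit, named after its value was seen, at 5.05 and 6.32 CPM in the controls and 12.9 CPM in the KO. In the citric acid cycle 15 of 16 genes were called lower (median -0.89). Of 27 genes for fatty acid uptake and oxidation 17 were called lower and none higher (median -0.70). Fabp3, the fatty acid carrier of muscle, was at 609 and 543 CPM in the controls and 151 CPM in the KO (log2 fold change -1.93, SE 0.27, adjusted p = 0.00359), and Esrrg, a nuclear receptor that drives oxidative genes, at 31.7, 30.8 and 9.05 CPM (log2 fold change -1.79, SE 0.16, adjusted p = 0.00108). Glycolysis, glycogen and phosphagen genes had 18 of 22 called lower and none higher (median -1.11). Phkg1, a phosphorylase kinase subunit, was at 197 and 212 CPM in the controls and 60.8 CPM in the KO (log2 fold change -1.75, SE 0.19, adjusted p = 0.0017), and Eno3, muscle enolase, at 12069, 11083 and 4459.6 CPM (log2 fold change -1.38, SE 0.25, adjusted p = 0.00773). With the common score threshold the lower calls were 40, 9, 10 and 8 in these 4 lists, and under plain totals 47, 8, 9 and 14, with 1, 1, 3 and 0 higher.

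Myogenic regulators went both ways. Of 17 myogenic and fusion genes 4 were called higher and 3 lower, beside 10.6% and 15.1% of all genes, with a median of -0.33. Mymx, the micropeptide that fuses myoblasts, was at 45.2 and 42.4 CPM in the controls and 94.5 CPM in the KO (log2 fold change 1.11, SE 0.20, adjusted p = 0.00773). Klf5, a zinc finger factor of muscle differentiation, was at 44.5 and 53.9 CPM in the controls and 108 CPM in the KO (log2 fold change 1.13, SE 0.16, adjusted p = 0.00369). The KO was above both controls for either gene. Myog, myogenin, was at 315 and 318 CPM in the controls and 499.5 CPM in the KO (log2 fold change 0.66, SE 0.17, adjusted p = 0.0273), and its call was lost without E18.5 control 1 (0.65), E18.5 control 2 (0.67) or E14.5 control 3 (0.66). It was seen in 64.9% and 64.7% of thinned control muscle spots and in 91.0% of those of the KO, against 35.7%, 28.4% and 71.8% outside muscle. Mef2d, a partner of the myogenic factors, fell from 158 and 177 CPM to 89.7 CPM (log2 fold change -0.90, SE 0.13, adjusted p = 0.00413). The list had 8 higher and 1 lower under plain totals, 5 and 2 with the common score threshold, and 4 and 5 without E14.5 control 1 or with the E18.5 sections alone.

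Genes that answer to activity and to its loss were called in both directions. In the denervation and inactivity list 4 of 19 genes were called higher and 4 lower, beside 10.6% and 15.1% of all genes. Fbxo40, a muscle ubiquitin ligase part, was at 56.8 and 66.0 CPM in the controls and 25.2 CPM in the KO (log2 fold change -1.29, SE 0.20, adjusted p = 0.00497), and Hdac4, a deacetylase that rises after denervation, at 79.4, 81.8 and 112 CPM (log2 fold change 0.47, SE 0.09, adjusted p = 0.0114), a call that was lost with the 3 E18.5 sections alone. Plain totals gave 9 higher and 3 lower, the E18.5 sections alone 0 and 5, and leaving out E14.5 control 3 or either E18.5 control left 2 genes higher. In the calcineurin and activity list 7 of 20 genes were called lower and 2 higher, beside 15.1% and 10.6% of all genes. Fos, an immediate early gene, was at 23.3 and 29.4 CPM in the controls and 7.42 CPM in the KO (log2 fold change -1.83, SE 0.19, adjusted p = 0.00162). The KO lay below both controls. Camk2g, a calcium-dependent kinase, fell from 124 and 120.1 CPM to 62.2 CPM (log2 fold change -0.97, SE 0.11, adjusted p = 0.00175). Plain totals gave 3 lower and 4 higher in this list, and 1 gene was higher without E18.5 control 1 and none among interior spots or with the common score threshold.

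Secreted regulators of muscle growth held some of the largest changes. Of 18 such genes 4 were called higher and 5 lower, beside 10.6% and 15.1% of all genes. Fst, follistatin, which binds and blocks myostatin, was at 15.4 and 19.05 CPM in the controls and 90.5 CPM in the KO (5.26-fold, log2 fold change 2.40, SE 0.13, adjusted p = 0.000552). Mstn, myostatin itself, was at 185 and 181 CPM in the controls and 66.8 CPM in the KO (log2 fold change -1.45, SE 0.27, adjusted p = 0.00919), a call that was lost with the common score threshold. Fst was above and Mstn below both controls. Igf2, a fetal growth factor, was at 7799 and 7816 CPM in the controls and 4869.8 CPM in the KO (log2 fold change -0.68, SE 0.16, adjusted p = 0.018), and its call was lost without either E18.5 control (-0.68 in both cases), among interior spots, among spots low in other tissue, with the common score threshold and under plain totals. The list had 2 higher and 3 lower genes without E18.5 control 1, and 11 higher and 2 lower under plain totals.

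More stress genes rose than fell. Of 20 genes of the integrated stress and serine list 6 were called higher and 1 lower, or 12 and 0 under plain totals. Mthfd2, a mitochondrial folate enzyme, was at 29.2 and 15.0 CPM in the controls and 59.0 CPM in the KO (log2 fold change 1.41, SE 0.31, adjusted p = 0.0155), a call that was lost with the 3 E18.5 sections alone. Hspa5, the reticulum chaperone BiP, was at 637 and 523 CPM in the controls and 1306 CPM in the KO (2.25-fold, log2 fold change 1.17, SE 0.16, adjusted p = 0.0035). Xbp1, a factor of the unfolded protein response, was at 112 and 110.2 CPM in the controls and 194 CPM in the KO (log2 fold change 0.81, SE 0.11, adjusted p = 0.0032). Psat1, a serine synthesis enzyme, was at 66.5 and 51.3 CPM in the controls and 109 CPM in the KO (log2 fold change 0.88, SE 0.17, adjusted p = 0.00919). Sdf2l1, a reticulum protein outside that list and among the 12 largest rises, was at 14.2 and 11.7 CPM in the controls and 58.2 CPM in the KO (log2 fold change 2.17, SE 0.14, adjusted p = 0.000751). The KO was above both controls for all 5 genes, a place that the ranking required of Sdf2l1. Fgf21, a stress hormone named after its value was seen, was at 0.64 and 0.65 CPM in the controls and 5.80 CPM (100 UMIs) in the KO. Atf4, the factor at the head of the integrated stress response, was the gene called lower (-0.46, SE 0.13). Atf4 was also named after its value was seen. Its call was lost without E14.5 control 2, E14.5 control 3 or E18.5 control 1. The call was also lost among interior spots, in thinned sums, with the common score threshold, with the E18.5 sections alone and under plain totals. Among 19 splicing regulators 2 were called higher and 6 lower, beside 10.6% and 15.1% of all genes. Rbm38, an RNA-binding protein of muscle, was at 283 and 314 CPM in the controls and 101 CPM in the KO (log2 fold change -1.56, SE 0.14, adjusted p = 0.000989). Plain totals turned the balance to 11 higher and 1 lower. The count of higher splicing regulators was 3 without E18.5 control 1 and 1 without E18.5 control 2, E14.5 control 2 or E14.5 control 3.

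Some cell-cycle genes rose in the KO muscle spots, and how many passed depended on the scaling. Of 26 S phase genes 10 were called higher and none lower, and 24 lay above both controls (median 0.49). Mcm2, a helicase subunit of replication origins, was at 51.3 and 46.0 CPM in the controls and 85.1 CPM in the KO (log2 fold change 0.81, SE 0.13, adjusted p = 0.00606), and Fen1, a nuclease of lagging strand synthesis, at 19.3, 17.3 and 29.98 CPM (log2 fold change 0.71, SE 0.12, adjusted p = 0.00548). The KO stood above both controls in each. Of 26 G2 and M phase genes 4 were called higher and none lower, a count near the 10.6% of all genes called higher. Of the 26, 21 lay above both controls (median 0.36), beside 43.0% of all genes. Tacc3, a spindle protein, was at 19.5 and 18.03 CPM in the controls and 29.9 CPM in the KO (log2 fold change 0.67, SE 0.11, adjusted p = 0.00638). Mki67, a marker of cycling cells, was at 137 and 94.3 CPM in the controls and 164 CPM in the KO and did not pass (log2 fold change 0.50, SE 0.21, adjusted p = 0.116). It was seen in 37.4% and 27.9% of thinned control muscle spots and 52.9% of KO muscle spots, against 58.2%, 52.2% and 65.6% of spots outside muscle, so the KO share was within the range of spots outside muscle. Under plain totals 26 S phase and 23 G2 and M phase genes were called higher. The S phase count was 15 in thinned sums, 16 among muscle spots above their section's median score, 5 with the common score threshold, 21 without E18.5 control 1, 6 without E14.5 control 3 and 3 with the E18.5 sections alone, and the G2 and M phase count was 15 without E18.5 control 1. Of 37 replication-dependent histone genes 2 were called higher and 2 lower, below the 10.6% and 15.1% of all genes, and 16 and 0 under plain totals. Their median log2 fold change was 0.15, against 0.53 without E18.5 control 1 and -0.12 without E18.5 control 2.

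Markers of other cell types in the muscle spots moved too, and their part in the gene changes above was not tested. Of 8 Schwann cell markers 7 were called higher and none lower, with a median of 1.97 and a sum of 97.7 and 109 CPM in the controls and 255.7 CPM in the KO. Mbp, a myelin protein, was at 8.01 and 13.9 CPM in the controls and 49.7 CPM in the KO (4.54-fold, log2 fold change 2.18, SE 0.31, adjusted p = 0.00373). The count of Schwann cell markers called was also 7 with the common score threshold, among interior spots and with each control left out. Of 8 macrophage markers 5 were called higher and none lower (median 0.78), with a sum of 292 and 361 CPM in the controls and 597 CPM in the KO. C1qa, a complement chain of macrophages, was at 69.3 and 97.8 CPM in the controls and 208 CPM in the KO (log2 fold change 1.32, SE 0.19, adjusted p = 0.00396). The macrophage count was 2 with the common score threshold and 3 among interior spots. Synapse and axon genes named by the study, a list chosen on these samples and so no independent evidence of its direction, had 5 of 12 called higher and none lower, or 9 higher under plain totals. Among them Ptprz1, a receptor phosphatase of glia, was at 18.4 CPM in both controls and 48.0 CPM in the KO (log2 fold change 1.39, SE 0.15, adjusted p = 0.00166), and Col25a1, a muscle collagen needed for motor innervation, at 13.96, 16.2 and 36.8 CPM (log2 fold change 1.29, SE 0.14, adjusted p = 0.00168).

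Vessels and tendon were lower. Of 10 endothelial markers 8 were called lower and none higher, with a median of -0.77 and a sum of 1163 and 1072 CPM in the controls and 691 CPM in the KO. Pecam1, the vessel marker CD31, was at 109 and 96.0 CPM in the controls and 50.3 CPM in the KO (log2 fold change -1.03, SE 0.22, adjusted p = 0.0149). None of the 8 calls held under plain totals, 2 were left with the common score threshold or among interior spots, and the count was 4 without E14.5 control 3, 4 without E18.5 control 1 and 5 without E18.5 control 2. Of 10 tendon markers 7 were called lower and none higher, with a sum of 996 and 1174 CPM in the controls and 559 CPM in the KO. Plain totals gave 5 tendon markers lower and 1 higher. Thbs4, thrombospondin 4 of the muscle-tendon junction, was at 189.6 and 230.2 CPM in the controls and 16.8 CPM in the KO (log2 fold change -3.65, SE 0.26, adjusted p = 0.000847), and Tnmd, tenomodulin, at 90.7, 119 and 25.5 CPM (log2 fold change -2.04, SE 0.22, adjusted p = 0.0017). The KO was below both controls in each. Smooth muscle had 4 of 7 markers called lower and 1 higher, and fibroblasts 3 of 10 lower and 1 higher, with fibroblast sums of 16137, 21285 and 15515 CPM. Of all genes 15.1% were called lower and 10.6% higher. Under plain totals smooth muscle had 2 lower and 2 higher, and fibroblasts 2 lower and 1 higher. Without E18.5 control 2 the higher counts were 2 and 0, and without E18.5 control 1 no fibroblast marker was called higher.

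Hepatocyte and mesothelium markers differed between the 2 controls by more than between genotypes. The cartilage sum differed widely between the controls and was lowest in the KO. The erythroid sum was alike in the controls and lower in the KO. Hepatocyte markers summed to 767 CPM in control 1, 2.58 CPM in control 2, where 3 of the 10 were at 0, and 655 CPM in the KO, and none of 10 was called, or 3 higher without E18.5 control 1. Cartilage markers summed to 1351, 99.5 and 54.1 CPM, with 2 of 7 tested called lower and 1 higher, and without E18.5 control 2 these counts were 6 and 0. Mesothelium summed to 67.1, 209 and 230 CPM with 1 of 7 called higher, or 4 without E18.5 control 2, and erythroid genes to 973, 954 and 401 CPM with 1 of 7 called higher, or 4 lower with the 3 E18.5 sections alone. None of the 3 lung epithelium, 5 adrenal cortex or 3 brown adipocyte genes tested was called, although 1 adrenal and 1 brown adipocyte gene were called without E14.5 control 1, and the latter also without E14.5 control 2. Alb, the liver albumin gene, was in 47.3% of thinned KO muscle spots, 30.7% of those of control 1 and none of 2194 in control 2, which allows a share of up to 0.137%.

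The largest single changes drew on several of these groups. Called genes with at least 32 CPM in the higher group were ranked by size. Genes inside the range of the controls and members of the marker lists of other tissue were left out. A gene outside those lists may still be expressed in other tissue, which was not tested. In this ranking the falls after Ankrd2, Myl2 and Csrp3 were Smtnl1, Tppp3, Map3k7cl, Myl3, Fhl1, Adamts8, Dusp8, Yipf7 and Tppp. Smtnl1, a smoothelin-like regulator of contraction, was at 638 and 711 CPM in the controls and 53.3 CPM in the KO, and Fhl1, a LIM protein of the sarcomere, at 2462, 2600.4 and 278 CPM. Their log2 fold changes were -3.66 (SE 0.24, adjusted p = 0.000751) and -3.19 (SE 0.22, adjusted p = 0.000845). The rises were led by Ltbp2, a binding protein of latent TGFβ and microfibrils, at 5.69 and 12.01 CPM in the controls and 104 CPM in the KO (11.8-fold, log2 fold change 3.56, SE 0.35, adjusted p = 0.00146). Lbp, the lipopolysaccharide-binding protein, was at 8.05 and 11.7 CPM in the controls and 88.7 CPM in the KO (log2 fold change 3.17, SE 0.44, adjusted p = 0.00358), and Alcam, a cell adhesion molecule of axons and muscle precursors, at 9.78, 10.9 and 84.7 CPM (log2 fold change 3.04, SE 0.17, adjusted p = 0.000552). The KO values of these 3 were several times those of either control. Further large rises were those of Tmem108, Pappa, Fst, Cxadr, Sdf2l1, Myh4, Adamtsl1 and Hephl1, and the calls of Tmem108, Pappa and Cxadr were lost with the common score threshold.

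**Figure D3:**
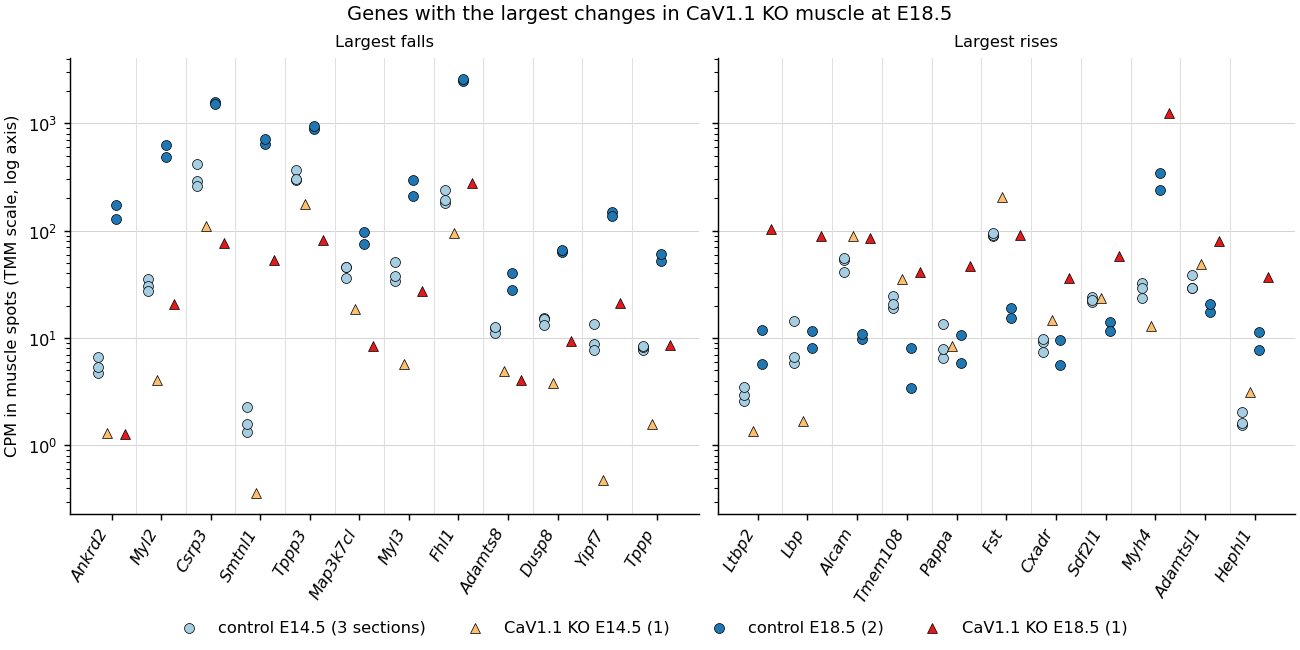
Level in muscle spots in CPM (log axis, values under 0.08 drawn at 0.08) of the genes with the largest falls and rises, with E14.5 controls as light blue circles, KO E14.5 as orange triangles, E18.5 controls as blue circles and KO E18.5 as red triangles. Ankrd2 drops from 129.8 and 175 CPM to 1.28 CPM in the KO, and Ltbp2 climbs from 5.69 and 12.01 CPM to 104 CPM.

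The effect of the genotype was next set against that at E14.5, where 1 KO section stood against 3 controls and no section is shared with the E18.5 contrast. The effects differed between the ages for 949 of 14823 genes (6.40%), with 329 (2.22%) higher and 620 (4.18%) lower at E18.5. This result rests on the E14.5 controls: without E14.5 control 3 no gene passed in edgeR, with 3231 at an unadjusted p under 0.05, and without E14.5 control 2 148 passed, while DESeq2 on all sections called 1572. Ankrd2 was at 4.73 to 6.71 CPM in the E14.5 controls and 1.32 CPM in the E14.5 KO, so the KO level was alike at both ages while the controls differed, and the KO effect was -2.08 at E14.5 and -6.90 at E18.5 (difference -4.82, SE 0.55, adjusted p = 0.018). Myh4 was lower in the E14.5 KO, at 13.1 CPM against 23.5 to 32.7 CPM, and higher at E18.5 (difference 3.23, SE 0.36, adjusted p = 0.018). Lbp was at 1.67 CPM in the E14.5 KO against 5.91 to 14.6 CPM and also turned (difference 5.56, SE 0.77, adjusted p = 0.022). Ckm, muscle creatine kinase, was at 869 to 1309.9 CPM in the E14.5 controls and 88.4 CPM in the E14.5 KO, and at 27138 and 25589.5 CPM in the E18.5 controls and 10627 CPM in the E18.5 KO, with log2 fold changes of -3.54 and -1.31 (difference 2.22, SE 0.37, adjusted p = 0.026). Its gap was narrower at E18.5, where its call was lost among interior spots and with the common score threshold. Of the AChR subunits, Chrne and Chrnd differed between the ages. Chrne was at 0.695 to 0.817 CPM in the E14.5 controls and rested on 3 UMIs in the E14.5 KO, a ratio of 0.159 (exact 95% interval 0.0318 to 0.487, counting error only), and turned from -2.64 at E14.5 to 1.35 at E18.5 (difference 3.99, SE 0.47, adjusted p = 0.0186). For Chrnd the effect was -0.29 at E14.5 and 1.06 at E18.5 (difference 1.35, SE 0.25, adjusted p = 0.031), and for Chrng and Chrna1 the differences of 1.12 (SE 0.28, adjusted p = 0.055) and 0.66 (SE 0.24, adjusted p = 0.13) did not pass. Of the 72 oxidative phosphorylation genes 35 had a lower effect at E18.5 and none a higher one, with a median KO effect of -0.07 at E14.5 and -0.95 at E18.5. Cacna1s itself was at 15.0 to 18.4 CPM in the E14.5 controls and 13.4 CPM in the E14.5 KO, an effect of -0.30 against -1.53 at E18.5 (difference -1.23, SE 0.19, adjusted p = 0.025).

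**Figure D4:**
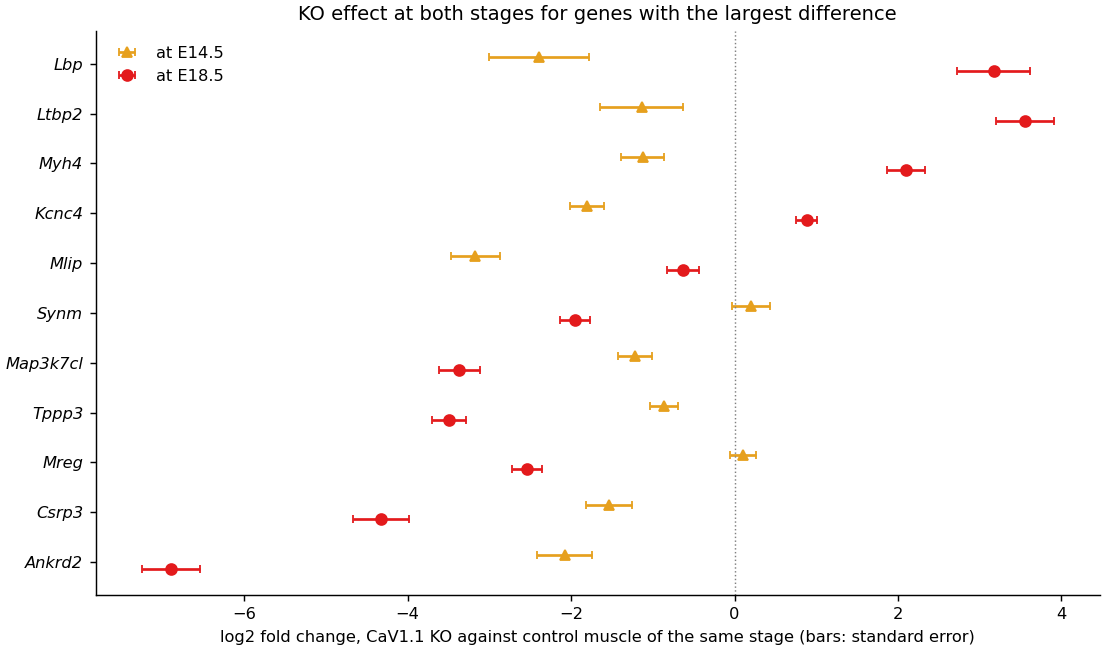
Log2 fold change of KO over control muscle with its SE at E14.5 (orange triangles) and at E18.5 (red circles) for genes with the largest differences between the ages, in both directions, among called genes with at least 32 CPM in the higher E18.5 group. Ankrd2 moves from -2.08 to -6.90 and Myh4 from -1.13 to 2.10.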

How the data were processed

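The authors counted UMIs per spot and gene with Space Ranger for FFPE tissue (2.0.1 per the file headers of the E18.5 sections), using probe pairs against mouse genes on mm10, and deposited these counts per section. En face sections of 5 µm lay on spots of 55 µm spaced 100 µm apart. The study tested spots. Here spots were not treated as replicates: counts of muscle spots were summed per section, and the sums of all 8 sections (5 groups, 3 residual degrees of freedom) were fitted with edgeR 4.0.16 (TMM, filter on low counts, quasi-likelihood test, Benjamini-Hochberg adjusted p under 0.05). Groups of 1 section, the KO included, were assumed to vary like the controls. Genes tested numbered 14832 of 19465, and the 9 genes that chose the spots got no test. An interaction compared the KO effects at E18.5 and E14.5. DESeq2 1.42.0 served as an alternative, and the scripts were tested on simulated data. Muscle UMI sums ran from 12835167 to 75800909 per section. The members and gene lists (26 lists and 14 marker lists) were chosen with earlier results of these data known. Genes were named by rule: the targeted gene, the 9 genes, up to 5 called members per list with at least 10 CPM, all receptor, myosin, slow and fast genes, the 12 largest rises and falls, and the 6 largest differences between ages in each direction. A few genes picked by this rule are not reported here. Musk, Rapsn, Dok7, Stac3, Mki67, Casq1 and Alb were named outside this rule, with no rule of their own. Other gene names are said to have been picked after their values were seen. In the alternatives, interior spots had muscle on all 6 sides, and spots low in other tissue lay at or below their section's median for markers of other tissues. For shares of spots with a UMI, each spot was thinned to 5000 UMIs, and exact (Clopper-Pearson) 95% intervals cover counting error only. Promoters and gene positions came from RefSeq on GRCm38.p6. The authors' spatial autocorrelation scores were not used.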

Additional observations from a re-analysis of the deposited data

Results flagged for a closer look

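The test of the difference between ages (the interaction in edgeR's quasi-likelihood fit) singled out 949 genes whose KO effect at E18.5 was not that at E14.5, and genes with the largest differences in each direction are given among those with at least 32 CPM in the higher E18.5 group. On the log2 scale, the E18.5 effect minus the E14.5 effect was -4.82 for Ankrd2, -2.79 for Csrp3, -2.64 for Mreg, -2.64 for Tppp3, -2.15 for Map3k7cl and -2.15 for Synm. In the other direction it was 5.56 for Lbp, 4.69 for Ltbp2, 3.23 for Myh4, 2.69 for Kcnc4 and 2.54 for Mlip. Mreg, melanoregulin, was at 5.57 to 5.90 CPM in the E14.5 controls and 6.18 CPM in the E14.5 KO, and at 35.9 and 29.4 CPM in the E18.5 controls and 5.62 CPM in the E18.5 KO, so that the KO level was alike at both ages. Synm, the intermediate filament protein synemin, was at 1.58 to 1.90 CPM against 1.95 CPM at E14.5 and at 51.3 and 40.7 CPM against 11.9 CPM at E18.5. Mlip, a lamin-interacting protein of muscle, was at 10.3 to 15.4 CPM against 1.39 CPM at E14.5, and at 271 and 252 CPM against 169 CPM at E18.5, where its fall of 0.63 did not pass the test (adjusted p = 0.0541). Each age has 1 KO section, and without E14.5 control 3 none of the 949 passed.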

How the results depend on the processing

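No paired analysis was possible because the KO at E18.5 was 1 section and the litter of the embryos was not given. Of 173 called genes picked by the naming rule, 110 kept their call in every alternative fit and 4 changed sign in some fit. The limit of a log2 fold change of at least 1 was not counted among these fits. The E18.5 counts were 1568 higher and 2242 lower, and leaving out 1 control gave 1111 to 1464 and 1779 to 2300. They were 614 and 709 with a log2 fold change of at least 1, 966 and 1386 among interior muscle spots, 7245 and 746 under plain totals, and 773 higher in the E18.5 sections alone. With a common score threshold, chosen after the data were seen, they were 949 and 1287. The difference between ages, 329 higher and 620 lower, became 551 and 1021 in DESeq2, 116 and 122 among interior spots, 169 and 149 with the common threshold, 4407 and 248 under plain totals, and 0 to 403 and 0 to 813 with 1 control left out. Among spots low in other tissue, also chosen after the data were seen, 368 were lower. Signs turned under plain totals for Chrnb1 (0.0546), Itga7 (0.0412), Myh1 (0.48), Myh2 (0.41), Pvalb (0.15), Tagln (0.0506), Tnni1 (0.13) and Utrn (0.0891). With the common threshold they turned for Myh1 (0.34), Mylk (-0.0340) and Pvalb (0.16), among interior spots for Myh1 (0.29) and Myh2 (0.0046), among spots low in other tissue for Myh1 (0.18), in the muscle spots above their section's median score for Myh1 (0.17), in thinned sums for Myh2 (0.0273), and without E18.5 control 2 for Myh1, Myh2 and Pvalb, whose values with 1 control left out ran from -0.31 to 0.26, from -0.44 to 0.27 and from -0.88 to 0.36. Plain totals shift each gene by construction, the smaller spot sets hold fewer UMIs, and for the rest the cause was not tested. With 1 KO section, the spread of the KO was not measured.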
